A study of Mus musculus with 48 samples.

Results

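Jκ1 breaks of Ku70-/- cells were read from both of their ends, and the joints found from the signal end (SE) were compared with those found from the coding end (CE). The members are the 6 libraries of Ku70-/- vAbl pro-B cells treated with STI-571 + DMSO, of 48 libraries in the whole series: 3 libraries were made with the JK1CE bait and 3 with the JK1SE bait. vAbl-ProB is a mouse pro-B cell line transformed by the Abelson virus. All groups compared here received STI-571 at 3 μM for 96 h, an Abl kinase inhibitor that arrests these cells in G1 and switches on RAG1/2, with DMSO as the solvent control of the series' inhibitors. The Ku70-/- cells are 1 clone in which exons of Ku70 were removed by Cas9, so a feature of the clone and an effect of Ku70 loss cannot be told apart. WT libraries with the same treatment (3 of each bait) were used to show where the bait difference is particular to Ku70-/- cells. They also set the positions of the recombining sequences. The Vκ sites were placed with JK1SE libraries of WT cells given STI-571 with DMSO or with the inhibitors L67 or L82-G17. Libraries with these inhibitors served for nothing else here. The study describes its experiments as biological repeats, but no label ties a library to a separate culture, and p-values measure only the spread between these libraries.

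As background, RAG1/2 cuts a Vκ and a Jκ segment at the border of the segment and its recombination signal sequence (RSS), a heptamer and a nonamer set apart by a spacer. Each cut leaves a hairpin-sealed coding end and a blunt signal end. Classical end joining, which starts with Ku70 and Ku80, joins coding to coding ends (CE-CE) and signal to signal ends (SE-SE). Without Ku, alternative end joining (A-EJ) takes over, with more loss of bases from ends, more microhomology (MH) at joints and many hybrid joints of a coding to a signal end. A Vκ segment in the same orientation as Jκ1 (deletional, DEL) gives a chromosomal deletion by CE-CE joining and an excision circle by SE-SE joining, whereas its hybrid joints invert the DNA in between. A segment in the opposite orientation (inversional, INV) gives an inversion by CE-CE and SE-SE joining, and its hybrid joints give a deletion or a circle.

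Each library held 133143 to 153717 junctions from the JK1CE bait and 176513 to 192122 from the JK1SE bait. Replicate 1 of both baits stood apart. Its Vκ joints were copies of few distinct junctions, with 889 distinct junctions at 106 copies each from the JK1CE bait and 954 at 149 copies each from the JK1SE bait. Replicates 2 and 3 held 12885 and 12042 distinct Vκ junctions from the JK1CE bait and 13337 and 10693 from the JK1SE bait, at 8.70 to 13.9 copies each. The most frequent Vκ joint took 3.90% and 3.60% of the Vκ joints of the replicate 1 libraries and at most 0.211% of those of the others. Neither replicate 1 library is among those that the study's supplementary lists name. Values are therefore given for each library or with and without replicate 1, and joints are counted with their copies, as the lists hold them, unless each distinct junction is said to count once. Counts of PCR copies are not counts of molecules, so limits given for a count of 0 cover counting error only. Distinct junctions were told apart by position, strand, bait end and the gap or overlap at the joint. Copies that differ in these by a read error thus count as separate junctions, which was not corrected for.

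Joints were placed at 137 RAG break sites of chromosome 6, from 67506211 to 70654172,, of which 63 were DEL and 74 INV, 92 lay at an annotated Vκ segment and 111 had the full heptamer CACAGTG. Coordinates are of mm9 (NCBIM37). The Jκ1 bait sequence is shown because both baits read outwards from its break, which lies between the heptamer, in capitals, and the first Jκ1 base. It covers chr6:70672517-70672593 on the plus strand, from the nonamer to the end of the Jκ1 exon (chr6:70672556-70672593). The segments beside it are those of Igkv1-135, the most used DEL site, of Igkv12-44, the most used INV site, and of Igkv8-16, whose joints were mostly to signal ends from both baits. Each covers 20 coding bases and the RSS, with the heptamer and the nonamer in capitals.
Jκ1: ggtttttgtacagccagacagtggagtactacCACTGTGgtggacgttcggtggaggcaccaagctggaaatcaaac
Igkv1-135 (chr6:67560483-67560530, plus strand): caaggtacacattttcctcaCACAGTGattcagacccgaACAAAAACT
Igkv12-44 (chr6:69764597-69764644, minus strand): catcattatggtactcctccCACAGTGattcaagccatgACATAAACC
Igkv8-16 (chr6:70336638-70336685, minus strand): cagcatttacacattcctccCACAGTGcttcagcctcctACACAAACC

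The JK1SE bait recovered more V-J joints than the JK1CE bait. V-J Eff, the share of 500000 read pairs that held a Vκ joint, was 28.8% ± 0.70 (SD, n = 3) from the JK1SE bait and 20.9% ± 1.88 (SD, n = 3) from the JK1CE bait (exact two-sided permutation p = 0.1, the smallest that 3 against 3 libraries can give). Distinct Vκ junctions, each counted once, came to means of 1.67% and 1.72% of the 500000 read pairs. The libraries overlapped, at 0.19%, 2.67% and 2.14% from the JK1SE bait and 0.18%, 2.58% and 2.41% from the JK1CE bait. The read pairs still include copies, and identical joints of different cells count once, so these values cannot tell whether the order rests on copies. Hybrid joints made up 40.3%, 32.7% and 33.0% of the Vκ joints of the 3 JK1CE libraries and 47.7%, 47.4% and 47.9% of those of the 3 JK1SE libraries. The libraries did not overlap (exact two-sided permutation p = 0.1), and with each distinct junction counted once the means were 36.9% and 47.4%.

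The kind of Vκ end that was joined differed between the baits by far more at DEL than at INV sites. At DEL sites, coding ends took 69.5%, 75.4% and 77.1% of the joints of the 3 JK1CE libraries and 14.4%, 25.6% and 27.2% of those of the 3 JK1SE libraries. Every JK1CE library thus lay far above every JK1SE library, with means of 74.0% ± 4.0 (SD, n = 3) and 22.4% ± 6.97 (SD, n = 3). At INV sites, coding ends took 53.7%, 62.2% and 60.4% of the joints from the JK1CE bait and 63.0%, 58.1% and 59.1% from the JK1SE bait, so the same kind of end prevailed whichever Jκ1 end was used as bait. The JK1SE minus JK1CE difference was −51.6 percentage points at DEL sites (exact two-sided permutation p = 0.1) and 1.25 points at INV sites (exact two-sided permutation p = 0.8), where leaving out any 1 library gave −1.27 to 2.96 points. The difference between DEL and INV sites within each library was 15.2 points ± 1.76 (SD, n = 3) from the JK1CE bait and −37.6 points ± 9.47 (SD, n = 3) from the JK1SE bait, with no overlap (exact two-sided permutation p = 0.1).

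**Figure D1:**
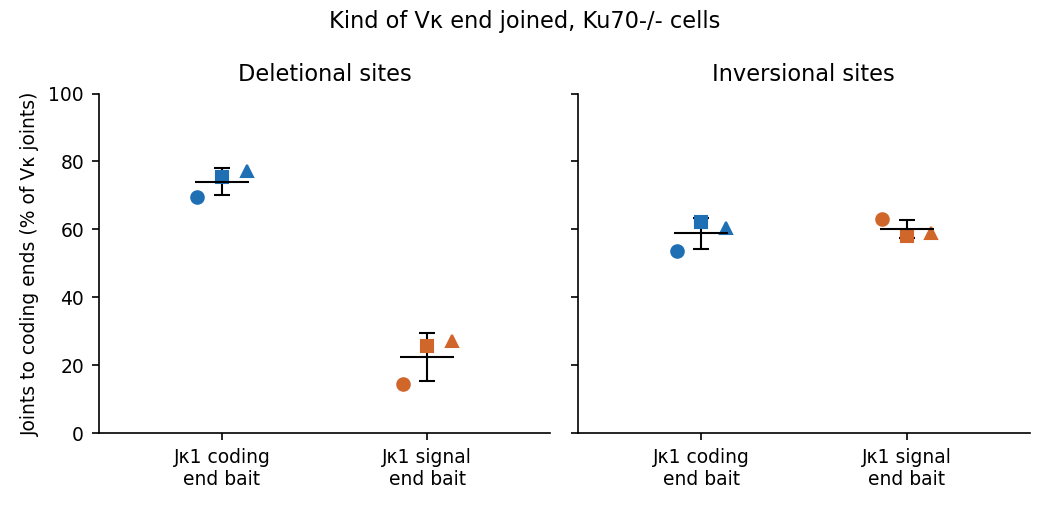
Share of Vκ joints to coding ends (percent, y axis) for the JK1CE and the JK1SE bait in Ku70-/- cells, at DEL sites (left) and INV sites (right). Points are libraries (circle, replicate 1, square, replicate 2, triangle, replicate 3), with the mean and SD of 3. At DEL sites the JK1CE libraries sit at 69.5% to 77.1% and the JK1SE libraries at 14.4% to 27.2%, while at INV sites both sets lie between 53.7% and 63.0%.

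The pattern did not rest on replicate 1 or on copies. With each distinct junction counted once, coding ends took 71.5% of DEL joints from the JK1CE bait and 26.1% from the JK1SE bait, and 58.5% and 57.6% of INV joints. Counted this way the INV libraries too did not overlap, at 58.3% to 58.7% from the JK1CE bait and 57.3% to 57.8% from the JK1SE bait (exact two-sided permutation p = 0.1). Expressed as an odds ratio, a DEL joint was 10.3 times as likely, in odds, to be to a coding end from the JK1CE bait as from the JK1SE bait, 8.95 times without replicate 1 and 7.19 times with each distinct junction counted once. The same ratio at INV sites was 0.950, 1.12 and 1.03. In WT cells, where 0.212% of joints from the JK1CE bait and 1.72% of those from the JK1SE bait were hybrid, the kind of end joined followed the bait at sites of both orientations.

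The contrast held at both the Jκ-distal and the Jκ-proximal end of the locus. Grouped by the sub-TADs (sTADs) of Igκ, which are sub-domains of chromosome contact numbered towards Jκ, coding ends took 47.5 points more of the DEL joints from the JK1CE than from the JK1SE bait in sTAD1-2 (21 DEL sites), 56.1 points more in sTAD3 (17 sites) and 51.8 points more in sTAD5 (21 sites), in each with no overlap between libraries. In sTAD4, which has only 4 DEL sites, the difference was 22.4 points and the libraries overlapped. At INV sites the differences were −10.3, 16.5, −2.46 and −6.0 points in sTAD1-2, sTAD3, sTAD4 and sTAD5, and the libraries overlapped in all of them. In sTAD3 the overlap came from replicate 1 of the JK1CE bait (51.8%): replicates 2 and 3 gave 66.4% and 64.9% from the JK1CE bait and 49.9% and 55.7% from the JK1SE bait, and with each distinct junction counted once the means were 57.1% and 45.4%.

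Site by site, 32 sites had at least 500 joints in each of the 6 libraries. These counts include copies, at means of 106 and 149 per distinct Vκ junction in replicate 1 of the JK1CE and the JK1SE bait. Replicate 1 values at single sites, here and below, can therefore rest on few distinct junctions. At 9 of 12 DEL sites and at 4 of 20 INV sites the coding end share was higher in every JK1CE library than in every JK1SE library, against 40.6% of all 32 sites. It was lower without overlap at 1 INV site, 3.12% of the 32. The median difference was 51.7 points at DEL sites, with all 12 above 0, and 4.99 points at INV sites, with 12 of 20 above 0. Without replicate 1, 57 sites qualified, and the coding end share was higher without overlap from the JK1CE bait at 20 of 20 DEL sites and 14 of 37 INV sites, against 59.6% of all 57 sites. It was lower without overlap at 3 sites, 5.26%, all of them INV. The sites are not replicates, since all of them share the same libraries and the same Jκ1 end.

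**Figure D2:**
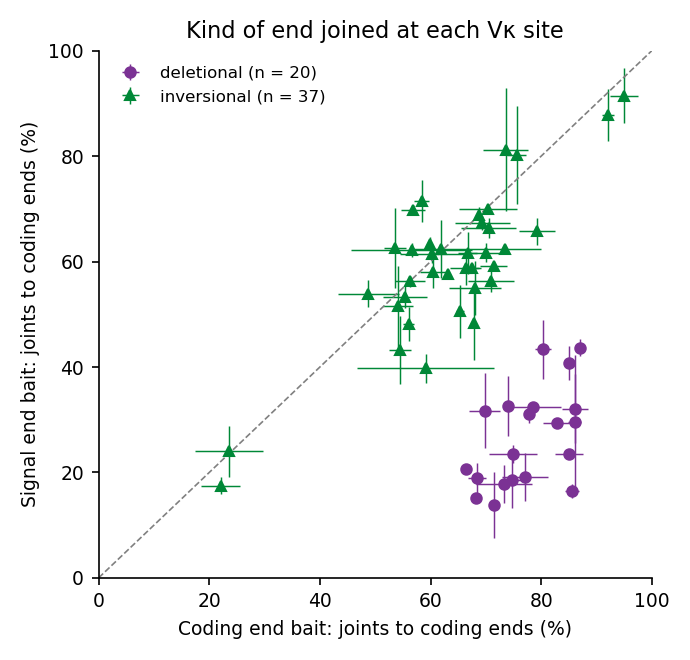
Share of joints to coding ends (percent) at each Vκ site with at least 500 joints in replicates 2 and 3 of both baits, from the JK1CE bait (x axis) and the JK1SE bait (y axis), in Ku70-/- cells. Points are means of replicates 2 and 3 and bars span both values, for 20 DEL sites (circles) and 37 INV sites (triangles). All 20 DEL sites lie well below the dashed line of equal shares, and INV sites scatter around it.

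Igkv1-135, a DEL segment at the Jκ-distal end of the locus and the most used site of all, shows the contrast. Coding ends took 72.9%, 70.1% and 66.7% of its joints from the JK1CE bait and 3.19%, 16% and 21.7% from the JK1SE bait. Igkv12-44, an INV segment in sTAD5, gave 97.3%, 55.5% and 51.7% from the JK1CE bait and 86.0%, 70.2% and 55.1% from the JK1SE bait. Its libraries interleave, and replicate 1 of each bait is the highest of its group. Igkv6-32, another INV segment, gave 74.5%, 59.4% and 51.3% from the JK1CE bait and 62.1%, 55.3% and 51.2% from the JK1SE bait, again overlapping.

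A few INV sites departed from the rest in the same way from both baits. At Igkv8-16, printed above, signal ends prevailed: coding ends took 0%, 29.7% and 17.5% of the joints from the JK1CE bait and 0%, 28.9% and 19.2% from the JK1SE bait. The site thus gave mostly hybrid joints from the JK1CE bait (100%, 70.3% and 82.5%) and mostly SE-SE joints from the JK1SE bait, and it had the largest fall in hybrid share from the JK1CE to the JK1SE bait among the 32 sites. The other sites with the largest falls were Igkv16-104 and Igkv1-117, both DEL, and the size of the fall there rested on replicate 1. The hybrid share at Igkv16-104 was 79.8%, 32.7% and 30.9% from the JK1CE bait and 11.7%, 14.8% and 15.4% from the JK1SE bait. That at Igkv1-117 was 81.5%, 19.6% and 14.7% against 4.93%, 29.99% and 28.8%, an order that turns without replicate 1.

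Among the 32 sites with at least 500 joints in each library, the largest rises in hybrid share from the JK1CE to the JK1SE bait were all at INV sites. Without replicate 1, where 57 sites qualified, the largest rise was 86.5 points, also at an INV site. At a site without an annotated segment at 69631399 the hybrid share was 4.76%, 33.9% and 45.5% from the JK1CE bait and 100%, 63.1% and 59.7% from the JK1SE bait. At Igkv8-21 it was 16.8%, 20.0% and 33.0% against 92.0%, 62.0% and 62.8%. At Igkv5-39, which has the heptamer CACAATG, it was 0%, 34.8% and 24.4% against 73.2%, 70.1% and 69.7%. None of these libraries overlap between the baits in hybrid share, and the sites were picked by the size of this difference, so it is given as a description. A hybrid joint is to a signal end from the JK1CE bait and to a coding end from the JK1SE bait. Coding ends thus took most joints at each of these sites in every library of both baits, and their shares overlapped between the baits. Their coding and RSS sequences are shown to set them beside that of Igkv8-16.
site 69631399 (chr6:69631372-69631419, minus strand): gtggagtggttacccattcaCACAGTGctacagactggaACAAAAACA
Igkv8-21 (chr6:70264861-70264908, minus strand): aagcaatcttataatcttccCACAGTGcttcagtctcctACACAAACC
Igkv5-39 (chr6:69850390-69850437, minus strand): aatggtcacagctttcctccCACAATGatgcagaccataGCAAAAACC

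Read as products, joints that invert the DNA between Vκ and Jκ1 made up 44.9%, 47.8% and 45.6% of the Vκ joints of the JK1CE libraries and 29.9%, 36.6% and 36.1% of those of the JK1SE libraries. The others were chromosomal deletions from the JK1CE bait and excision circles from the JK1SE bait. The shares thus set inversions against a different product for each bait. Inversions were thus less frequent in every JK1SE library (means of 46.1% ± 1.54 and 34.2% ± 3.72, SD, n = 3, exact two-sided permutation p = 0.1), also with each distinct junction counted once (47.8% and 37.1%). DEL sites supplied 28.4% of the hybrid joints from the JK1CE bait and 15.7% of those from the JK1SE bait, and 44.3% and 49.0% of the joints to the same kind of end.

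With all joints pooled, usage of single Vκ sites did not differ detectably between the baits. Of 98 sites with a mean of at least 50 joints per library, limma called 0 (0% of sites tested) at an adjusted p of 0.05, and 1 had an unadjusted p under 0.05. That site, Igkv1-132, took 0.27%, 0.52% and 0.65% of Vκ joints from the JK1CE bait and 2.08%, 0.89% and 1.11% from the JK1SE bait (log2 difference 1.5). Power was low in a simulation with the spread of these 6 libraries. Sites changed by 3 on the log2 scale were called there in 2.58% of cases, but in 100% of cases with the spread of replicates 2 and 3. The simulation gave all sites of a library the same spread, which real sites need not have. Its rates therefore do not give the power at single sites, and 0 calls do not show that usage was the same. Without replicate 1 the test called 0 of 100 sites, and 17 had an unadjusted p under 0.05. In settings chosen after seeing the data, also without replicate 1, limma called 9 of 96 sites among joints to the same kind of end and 3 of 91 among hybrid joints. The 3 were Igkv8-19 (log2 difference 4.03) and the sites without an annotated segment at 69233787 (3.00) and 70190420 (−2.03), and each was also called, with the opposite sign, among joints to the same kind of end (−2.40, −2.62 and 2.94). Joints to the same kind of end are to coding ends from the JK1CE bait and to signal ends from the JK1SE bait, and hybrid joints are the reverse. These calls therefore cannot be told apart from a site giving mostly the same kind of end from both baits, and the opposite signs are not separate results.

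Over the 98 sites, the log shares of replicates 2 and 3 correlated across baits (r = 0.91 to 0.96) as they did within each bait (r = 0.95 and 0.94), given as a description over sites that share libraries. The replicate 1 libraries of both baits correlated with each other at r = 0.46. Igkv1-135 took 3.74%, 5.39% and 5.53% of the Vκ joints from the JK1CE bait and 6.34%, 4.92% and 5.16% from the JK1SE bait, and the groups overlap. Igkv12-44 took 0.70%, 3.2% and 3.16% against 5.23%, 4.6% and 4.26%. Every JK1SE library was above every JK1CE library there, with a log2 difference of 1.29 that limma did not call (adjusted p = 0.77) and of 0.48 without replicate 1. Of the next most used sites, Igkv6-32 took 3.45% and 3.07% on average from the JK1CE and the JK1SE bait, Igkv12-46 3.12% and 3.29%, Igkv1-88 2.41% and 3.71% and Igkv4-50 2.47% and 3.37%.

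**Figure D3:**
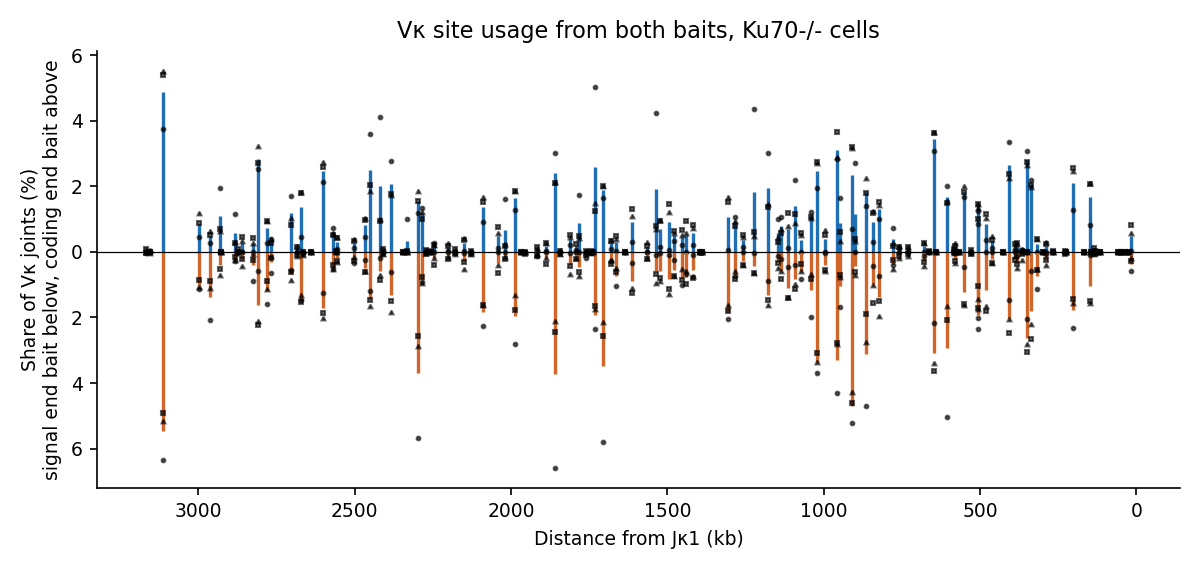
Share of Vκ joints at each of 137 sites (percent, y axis) by distance from Jκ1 (kb, x axis) in Ku70-/- cells, with the JK1CE bait upwards and the JK1SE bait downwards. Bars are means of 3 libraries and points single libraries (circle, replicate 1, square, replicate 2, triangle, replicate 3). Igkv1-135, at the far left, is the tallest site from both baits, and circles lie farthest from the bars.

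By group, the shares of sTAD1-2, sTAD3, sTAD4 and sTAD5 were 18.5%, 19.05%, 26.6% and 35.9% from the JK1CE bait and 16.9%, 18.3%, 25.5% and 39.3% from the JK1SE bait, and the libraries overlapped in each. Without replicate 1 of the JK1CE bait sTAD1-2 did not overlap (a difference of −2.84 points, exact two-sided permutation p = 0.1, against −0.53 points without its replicate 3). With each distinct junction counted once sTAD5 did not, at 32.8% to 34.1% from the JK1CE bait and 34.3% to 36.2% from the JK1SE bait (exact two-sided permutation p = 0.1). DEL sites as a whole took 38.7% ± 0.84 (SD, n = 3) of Vκ joints from the JK1CE bait and 33.1% ± 1.82 (SD, n = 3) from the JK1SE bait, with no overlap (exact two-sided permutation p = 0.1). With each distinct junction counted once this separation was lost, at 37.7%, 33.8% and 35.1% against 33.9%, 30.9% and 31.8% (exact two-sided permutation p = 0.2). Over the sites tested, the median log2 difference (JK1SE minus JK1CE) was −0.58 for 36 DEL sites, 0.01 for 62 INV sites and −0.14 for all 98. Without replicate 1 the medians were −0.27 for 38 DEL sites, 0.10 for 62 INV sites and −0.00044 for all 100. Among joints to the same kind of end the share of DEL sites had the other order, 44.3% from the JK1CE bait and 49.0% from the JK1SE bait. Sites with the full heptamer took 90.3% and 92.4% of the joints.

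Among the Vκ families with at least 4 tested sites, each a set of related segments, Igkv12 sites (6) had a median log2 difference of 0.08, Igkv1 (8) of 0.27, Igkv4 (20) of 0.01, Igkv8 (8) of 0.02, Igkv5 (5) of −0.01, Igkv6 (7) of −0.12, Igkv9 (4) of −0.14, Igkv3 (4) of −0.29 and Igkv14 (4) of −1.40. No site of any family was called. Without replicate 1 the medians were 0.10, −0.12, 0.12, 0.29, 0.20, 0.08, −0.48, −0.59 and −0.49 in the same order, so those of Igkv1, Igkv5 and Igkv6 changed sign and that of Igkv14 shrank. The Igkv14 sites took 2.31% of Vκ joints from the JK1CE bait and 1.42% from the JK1SE bait.

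From Igkv3-7 to Igkv3-2, the Jκ-proximal Igkv3 segments were nearly absent from both ends. Neither bait gave a joint at Igkv3-7 or Igkv3-5 in any of the 6 libraries, which allows a share of up to 0.00319% in the library with the fewest Vκ joints. Igkv3-4 gave 0, 0 and 3 joints from the JK1CE bait and none from the JK1SE bait, Igkv3-3 gave 1 joint from the JK1SE bait alone, and Igkv3-2 gave 1 joint from each bait. Igkv3-1, the next segment towards Jκ1, gave 40, 907 and 613 joints from the JK1CE bait and 841, 413 and 281 from the JK1SE bait. In WT libraries Igkv3-2 had means of 12304 joints from the JK1CE bait and 7887 from the JK1SE bait. All 6 libraries are of 1 clone, so a feature of the clone and an effect of Ku70 loss cannot be told apart here either. Why these joints are missing was not tested. The RSSs are shown because they read the same from the heptamer to the end of the nonamer at all 6 segments.
Igkv3-7 (chr6:70558011-70558058, plus strand): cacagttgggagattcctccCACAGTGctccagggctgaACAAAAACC
Igkv3-5 (chr6:70613870-70613917, plus strand): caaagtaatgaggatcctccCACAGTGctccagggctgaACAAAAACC
Igkv3-4 (chr6:70622352-70622399, plus strand): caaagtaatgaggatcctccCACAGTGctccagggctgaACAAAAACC
Igkv3-3 (chr6:70637509-70637556, plus strand): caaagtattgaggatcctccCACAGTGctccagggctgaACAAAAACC
Igkv3-2 (chr6:70649042-70649089, plus strand): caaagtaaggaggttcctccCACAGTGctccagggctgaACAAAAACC
Igkv3-1 (chr6:70654152-70654199, plus strand): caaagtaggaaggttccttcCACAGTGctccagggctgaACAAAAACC

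The bait difference was set against that of WT cells at 114 sites, and limma called 2 (1.75%). Igkv4-70, an INV segment, took 0.21%, 0.66% and 0.51% of Vκ joints from the JK1CE bait and 1.01%, 0.85% and 0.52% from the JK1SE bait in Ku70-/- cells. In WT cells it took means of 0.728% and 0.0271%, so that the bait difference was higher by 5.73 ± 0.71 (log2, SE) in Ku70-/- cells (adjusted p = 0.0020, limma). At Igkv4-50 the WT shares were 2.75% and 1.28%, and the difference was higher by 1.57 ± 0.31 (log2, SE, adjusted p = 0.036, limma). The kind of end joined at Igkv4-70 differed between libraries: coding ends took 92.5% to 99.0% of its joints from the JK1CE bait, but 0.28%, 86.2% and 96.7% from the JK1SE bait, the first of these in replicate 1. The calls depended on the libraries and joints counted. At Igkv4-50 the call was lost without JK1CE replicate 2 or 3 or JK1SE replicate 3 (adjusted p = 0.061, 0.060 and 0.081, limma), with differences of 1.65, 1.65 and 1.57 that were as large as with all libraries. Neither site was called among joints to the same kind of end alone (0 of 113 sites, differences of 3.54 at Igkv4-70 and 1.52 at Igkv4-50) or hybrid joints alone (0 of 83, 3.73 and 0.65). Without replicate 1 of both baits, Igkv4-50 was called among joints to the same kind of end (1.33, adjusted p = 0.00084, limma) and Igkv4-70 was not (1.65, adjusted p = 0.28). Without replicate 1 of both baits the fit called 52 of 113 sites.

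Signal ends of Vκ sites were kept longer in joints to the Jκ1 signal end than in joints to the Jκ1 coding end. Of signal preys within 100 bp of the break, those within 10 bp of it were 60.5%, 59.95% and 58.8% from the JK1SE bait and 48.4%, 48.5% and 47.0% from the JK1CE bait (exact two-sided permutation p = 0.1). The libraries of each bait lay within 2 points of each other, and the gap between the baits was 11.8 points. Intact signal ends (0 bp lost) made up 18.2%, 10.1% and 10.5% of the signal preys of the JK1SE bait and 8.78%, 3.34% and 4.51% of those of the JK1CE bait. Coding preys did not separate the baits: 51.3%, 43.1% and 43.5% lay within 10 bp from the JK1SE bait and 54.1%, 45.2% and 43.4% from the JK1CE bait (exact two-sided permutation p = 0.6).

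The Jκ1 end itself was shortened less when it was the signal end, with signal preys in every library and with coding preys depending on how joints were counted. Jκ1 signal ends lost 10 bp or fewer in 52.8%, 55.9% and 53.6% of joints to signal preys, and Jκ1 coding ends in 39.98%, 32.9% and 34.0% of joints to signal preys (exact two-sided permutation p = 0.1). In joints to coding preys the shares were 49.5%, 46.0% and 46.6% for the Jκ1 signal end and 47.5%, 42.0% and 40.2% for the Jκ1 coding end, and these overlapped. They did not overlap without replicate 1 of the JK1CE bait (a difference of 6.29 points, exact two-sided permutation p = 0.1), nor with each distinct junction counted once, at 46.4%, 41.3% and 42.8% against 38.5%, 31.9% and 31.3% (9.58 points, exact two-sided permutation p = 0.1). Leaving out 1 library gave 2.62 to 6.29 points. Within each bait, the longest Jκ1 loss seen with the reads of these libraries was 54 bp for coding and 43 bp for signal ends, so losses beyond that were not measured. The shares were taken over all joints, so the shorter limit can raise those of the signal end. Counted with copies, losses over 50 bp took 2.12% to 7.53% of joints to either prey from the JK1CE bait and 0% from the JK1SE bait.

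**Figure D4:**
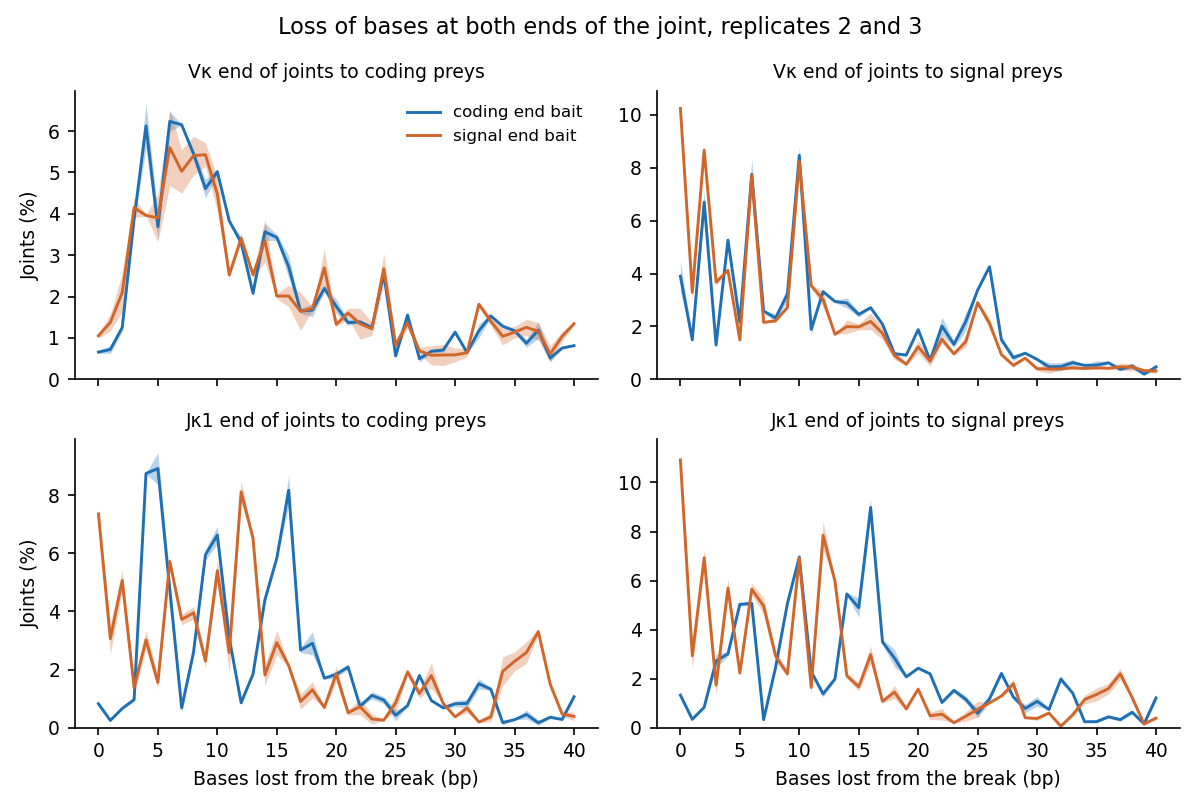
Share of joints (percent, y axis) by the number of bases lost from the break (bp, x axis), for the Vκ end (top) and the Jκ1 end (bottom), of joints to coding preys (left) and signal preys (right) in Ku70-/- cells. Lines are means of replicates 2 and 3 of the JK1CE bait (blue) and the JK1SE bait (orange) and bands span both. Coding preys of both baits follow each other closely, while intact signal preys (0 bp) are more frequent from the JK1SE bait, at 10.1% and 10.5% against 3.34% and 4.51%.

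The exact fusion of both intact signal ends, which is the main SE-SE joint of WT cells, was a minor form here but the most widely shared. It made up 9.93%, 3.34% and 3.15% of the SE-SE joints of the 3 JK1SE libraries, or 12309 joints at 80 sites in all. In replicate 1 it was 7373 joints at only 5 sites, and in replicates 2 and 3 it was 2500 joints at 71 sites and 2436 at 55 sites. The next most shared SE-SE joints lost 2 bp from the Vκ signal end only (68 sites), 2 bp from the Jκ1 signal end only (66 sites), or 7 bp from Jκ1 and 1 bp from Vκ with a 2-bp overlap AC (61 sites). The Jκ1 signal flank printed above carries this AC in the bases next to its heptamer. These and the following forms were picked after their counts were seen.

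No CE-CE joint was as widely shared. The most shared one lost 4 bp from Jκ1 and 6 bp from the Vκ segment and joined without overlap (2982 joints at 47 sites), and the next lost 5 and 4 bp with a 1-bp overlap G (2247 joints at 47 sites). Hybrid joints from the JK1CE bait were shared at up to 40 sites (5 bp lost from Jκ1 and 6 bp from the Vκ signal end). Those from the JK1SE bait were shared at up to 30 sites (an intact Jκ1 signal end, 4 bp lost from the Vκ coding end, 1-bp overlap G).

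Joint structure was sorted into direct joints, overlaps of 1 bp, overlaps of 2 bp or more (MH of that length) and insertions. Counted with copies, overlaps of 2 bp or more in joints to coding preys were more frequent in every JK1SE library: they took 20.3%, 19.8% and 18.7% of SE-CE joints and 14.7%, 14.98% and 15.9% of CE-CE joints (means of 19.6% ± 0.85 and 15.2% ± 0.65, SD, n = 3, exact two-sided permutation p = 0.1). In joints to signal preys they took 24.0%, 20.1% and 21.8% from the JK1SE bait and 7.47%, 20.3% and 19.04% from the JK1CE bait, which overlap. Overlaps of 1 bp went the other way, with 11.5%, 23.3% and 22.7% of SE-CE joints against 35.8%, 29.3% and 27.2% of CE-CE joints, and 21.5%, 19.8% and 19.2% of SE-SE joints against 44.0%, 27.2% and 26.9% of CE-SE joints. Direct joints counted with copies were the largest class in every library, from 47.7% to 67.6% of joints, and were higher in every JK1SE library. Their means were 59.4% against 51.8% for coding preys and 57.1% against 50.1% for signal preys (exact two-sided permutation p = 0.1 for each). For coding preys the gap rested mostly on replicate 1, and the closest libraries were at 53.848% (JK1SE) and 53.842% (JK1CE). Without replicate 1 the means were 55.2% against 53.3% for coding preys and 58.6% against 51.3% for signal preys. Insertions took 0.41% to 3.02% of joints of any kind. With each distinct junction counted once, overlaps of 2 bp or more took 20.6%, 17.95% and 20.03% of SE-CE joints and 18.4%, 13.8% and 14.5% of CE-CE joints, which overlap (exact two-sided permutation p = 0.2), as do overlaps of 1 bp in joints to coding preys and direct joints to either prey. Counted this way, insertions took 5.59% to 39.7% and direct joints 27.1% to 54.5%, and in replicate 1 insertions exceeded direct joints in all but the CE-SE joints. Copies of 1 joint that differ by a read error can count here as several distinct junctions. These insertion shares are therefore not shares of independent joints. In JK1SE replicate 1, insertions took 0.594% of 67679 SE-CE joints with copies and 39.7% of 431 distinct ones. How often ends overlap depends also on the bases they hold, which was not corrected for.

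**Figure D5:**
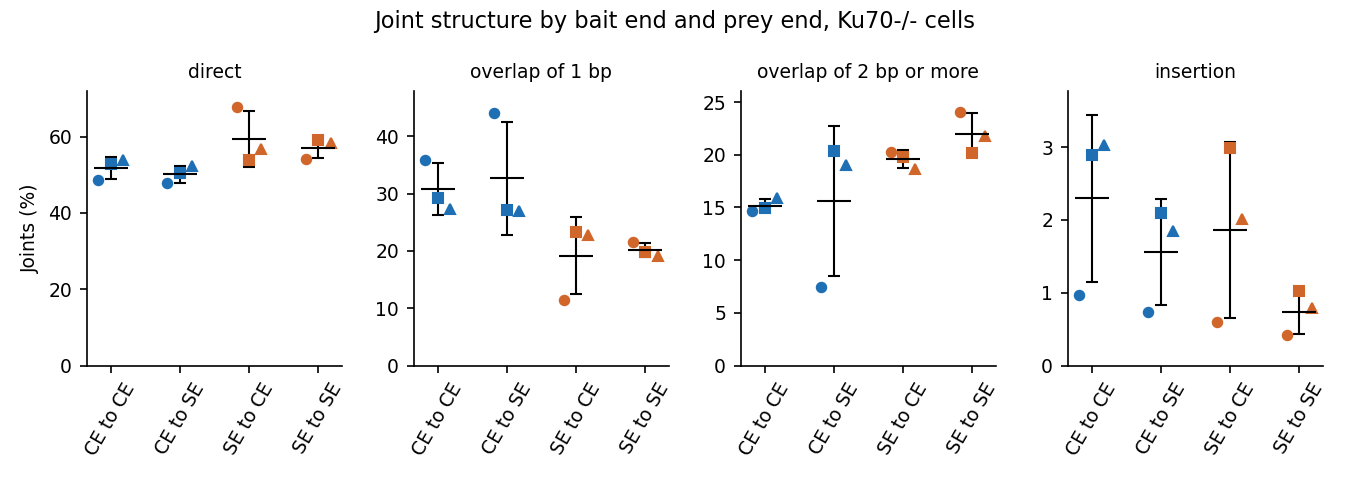
Share of joints (percent, y axis) that were direct, had an overlap of 1 bp, had an overlap of 2 bp or more, or had an insertion, by bait end and prey end (x axis) in Ku70-/- cells. Points are libraries (circle, replicate 1, square, replicate 2, triangle, replicate 3), with the mean and SD of 3. Overlaps of 1 bp are fewer in every JK1SE library than in every JK1CE library for the same prey kind, counted with copies.

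Breaks at Jκ1 itself were often closed again. Joints of the Jκ1 coding end with its own signal end made up 17.4%, 17.4% and 18.99% of all junctions read from the JK1CE bait and 12.5%, 14.3% and 13.5% of those read from the JK1SE bait, with no overlap (exact two-sided permutation p = 0.1). Without copies this separation was lost: these joints were 21.0%, 9.22% and 9.11% of distinct junctions from the JK1CE bait and 18.02%, 8.42% and 9.48% from the JK1SE bait, which overlap. As counts from the 500000 read pairs of each library, they also overlap, with 23120, 26724 and 28539 from the JK1CE bait and 21985, 26839 and 25945 from the JK1SE bait (exact two-sided permutation p = 0.6), while the JK1SE libraries hold more junctions in all. These joints can be read from either side. In replicates 2 and 3 the coding end had lost 10 bp or fewer in 40.4% and 37.9% of them read from the JK1CE bait and in 33.8% and 32.1% read from the JK1SE bait, and the signal end in 43.8% and 43.8% against 45.0% and 41.6%. In replicate 1 the shares were 51.7% against 62.2% for the coding end and 43.6% against 60.8% for the signal end, and over all 3 libraries the baits overlapped at both ends (exact two-sided permutation p = 1 and 0.7). The most frequent rejoining in all 4 libraries of replicates 2 and 3 was the same one: 11 bp lost from the coding end, 13 bp from the signal end and a 6-bp overlap GTGGAG, with 423 and 571 joints from the JK1CE bait and 544 and 660 from the JK1SE bait. GTGGAG stands in the printed Jκ1 sequence once on each side of the break. The replicate 1 libraries had other leading forms, which took 11.5% and 17.7% of their rejoining. Overlaps of 2 bp or more took 13.8%, 16.98% and 16.3% of rejoining from the JK1CE bait and 45.3%, 18.3% and 17.06% from the JK1SE bait. These libraries did not overlap between the baits (exact two-sided permutation p = 0.1), but the gap was small outside replicate 1. Direct joints of the rejoining overlapped (exact two-sided permutation p = 0.5).

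Junctions within 2 kb of the bait break, most of them this rejoining, took 22.8% ± 1.66 (SD, n = 3) of the junctions from the JK1CE bait and 16.8% ± 2.22 (SD, n = 3) from the JK1SE bait (exact two-sided permutation p = 0.1), but the libraries overlapped with each distinct junction counted once. As counts from 500000 read pairs they overlapped too, with 32670, 32630 and 34023 against 25251, 34935 and 33600 (exact two-sided permutation p = 0.9). Joints at Jκ2 to Jκ5 took 4.13% ± 2.07 (SD, n = 3) and 2.81% ± 1.00 (SD, n = 3), and the libraries overlapped. At Jκ2, the Jκ segment next to the bait, the 3 JK1CE libraries held 1743, 1220 and 1315 joints and the 3 JK1SE libraries 775, 2700 and 2519. Jκ4 gave 6097, 2163 and 1940 against 2076, 2415 and 2603. Jκ3, known as a nonfunctional segment, gave 22, 115 and 39 joints from the JK1CE bait and 0, 73 and 165 from the JK1SE bait.

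The recombining sequences, which lie downstream of Jκ, were joined from both baits. The intronic site (iRS) between Jκ and Cκ faces Jκ1 with its heptamer turned the opposite way, so its joints to the same kind of end give a deletion or a circle, as at DEL sites. Coding ends took 70.7% and 71.1% of its joints in replicates 2 and 3 of the JK1CE bait (2096 and 2130 joints) and 27.1% and 28.1% in those of the JK1SE bait (2799 and 3067 joints). Replicate 1 went the other way, with 7.27% from the JK1CE bait and 63.5% from the JK1SE bait, on 14 and 19 distinct junctions. Jκ2, with its heptamer turned as that of Jκ1, gave coding shares of 56.8%, 68.9% and 61.6% from the JK1CE bait and 87.7%, 45.8% and 43.8% from the JK1SE bait. Jκ4, turned the same way, gave 77.4%, 73.2% and 76.4% against 38.4%, 56.2% and 53.4%, with no overlap between the baits. Jκ5, also turned the same way, gave 3.55%, 46.6% and 49.1% against 64.5%, 37.8% and 46.8%, which overlap, as did Jκ3 with its few joints. The RS downstream of Cκ had 128 to 376 joints in each library. The sequences of the iRS and the RS are shown with their heptamers in capitals, since both baits joined them.
iRS (chr6:70674988-70675047, plus strand): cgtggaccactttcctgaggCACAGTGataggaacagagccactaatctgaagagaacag
RS (chr6:70701735-70701794, minus strand): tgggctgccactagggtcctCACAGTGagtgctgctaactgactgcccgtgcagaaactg

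Junctions outside chromosome 6 were rare from both baits, with 1423, 1617 and 1554 from the JK1CE bait and 3563, 1978 and 2034 from the JK1SE bait. The log2 difference was 0.67 (exact two-sided permutation p = 0.1), but 2105 of the 3563 were copies of 1 junction in the 22-Mb bin of chromosome 11, and the distinct junctions were 73, 295 and 273 against 24, 250 and 230. Most frequent among loci was Igl, the λ light chain locus and also a target of RAG1/2. It took 1065, 555 and 519 junctions from the JK1CE bait and 41, 392 and 389 from the JK1SE bait, or 12, 70 and 76 against 2, 48 and 46 distinct junctions. Every JK1CE library was above every JK1SE library in junctions with their copies, but not in distinct junctions, and 923 of the 1065 were copies of 1 junction. Over all antigen receptor loci outside chromosome 6, log2(junctions + 1) was 9.47 ± 0.52 (SD, n = 3) from the JK1CE bait and 7.60 ± 1.91 (SD, n = 3) from the JK1SE bait (exact two-sided permutation p = 0.1). Without replicate 1 of both baits the means were 9.17 and 8.71. Igh had junctions in replicate 2 of each bait only, 27 and 9. Tcra/Tcrd gave 0, 24 and 28 against 0, 18 and 26. Tcrb, on chromosome 6, gave 0, 2 and 13 against 0, 0 and 3, and Tcrg gave 0 of 133143 to 192122 junctions in each library, which allows a share of up to 0.00225% in the smallest. Of the further 1-Mb bins with most distinct junctions, chromosome 11 at 22 Mb and chromosome 14 at 103 Mb held junctions of replicate 1 of the JK1SE bait alone (2125 and 1277), each with 5 distinct junctions.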

How the data were processed

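HTGTS-JoinT-seq libraries (linear amplification from a Jκ1 coding or signal end, paired-end sequencing) were used as deposited junction lists with 1 line per junction. Per the study's methods, the authors drew 500000 read pairs per library and mapped them to mm9 with TranslocWrapper without removing duplicates. Junctions in the bait region were extracted separately with JoinT, which gave lists of rejoining, V(D)J and translocation junctions. Each deposited line gives positions, strands and alignment bounds (no unit of its own), so counts, losses of bases and overlaps were computed from them with Python 3.11.15 and pandas 2.3.3. Vκ sites were placed where at least 30 junctions from the JK1SE bait ended in the WT libraries with STI-571 (DMSO, L67 and L82-G17). No higher position could lie within 50 bp, and CAC had to lie next to the break. A joint belonged to a site within 200 bp, and its strand gave the kind of end. RefSeq symbols replaced older names where unambiguous. Usage was tested with limma 3.58.1 on log2(share) with 1 joint added, over sites with a mean of at least 50 joints, with Benjamini-Hochberg adjustment, and single values by exact two-sided permutation of libraries. Bait differences of both genotypes were compared by permuting baits within genotype (400 regroupings, smallest p 0.005), which assumes no bait difference in either. To translocation counts 1 was added before log2. The limma step was tested on simulated data. Named sites were the 6 most used, the 3 with the largest hybrid share difference per direction, those called, and the Jκ-proximal Igkv3 segments. Members and lists were chosen with earlier results of these data known. Replicates are numbered in accession order. Every library holds junctions of 2 sequencing runs, the smaller with 9.77% to 10.3% of junctions. Alternatives are given in the closing section.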

Additional observations from a re-analysis of the deposited data

Results flagged for a closer look

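In 7 cases the JK1SE minus JK1CE difference was flagged as unlike in Ku70-/- and WT cells with STI-571 + DMSO. The permutation of baits within genotype assumes no bait difference in either genotype. A small p can therefore come from a bait difference in WT cells alone. V-J Eff was higher from the JK1SE bait in Ku70-/- and lower in WT cells (70.2% from the JK1CE and 65.8% from the JK1SE bait), and the difference was greater by 12.3 percentage points in Ku70-/- cells (permutation of baits within genotype, p = 0.005, the smallest it can give). It was 3.76 points as a share of all junctions (permutation within genotype, p = 0.255) and 1.86 points with each distinct junction counted once (permutation within genotype, p = 0.235). The share of DEL sites was lower from the JK1SE bait in Ku70-/- and higher in WT cells, differing by −13.5 points (permutation within genotype, p = 0.005). Among joints to the same kind of end it was higher from the JK1SE bait in both, and the difference was −3.33 points (permutation within genotype, p = 0.455). Direct joints to coding preys differed by 50.7 points (permutation within genotype, p = 0.005) and by 2.63 points with each distinct junction counted once (p = 0.565), as direct joints took 70.7% of WT coding preys from the JK1CE bait and 27.7% from the JK1SE bait. Overlaps of 2 bp or more in joints to signal preys differed by 59.2 points, as they took 53.2% and 0.355% in WT cells. In both of these the WT value from the bait of the other kind rests on its few hybrid joints. Junctions in antigen receptor loci outside chromosome 6 differed by −3.78 on the log2 scale (permutation within genotype, p = 0.03), by −2.38 without replicate 1 of both baits (p = 0.067), by −3.48 without JK1CE replicate 1 alone (p = 0.055) and by −1.97 with each distinct junction counted once (p = 0.27). The usage of Igkv4-70 and Igkv4-50 differed by 5.73 and 1.57 on the log2 scale (limma, adjusted p = 0.0020 and 0.036). With each distinct junction counted once they differed by less, 1.99 and 0.86, and both were called (limma, adjusted p = 7.0e-05 and 0.0097). They differed by 3.54 and 1.52 among joints to the same kind of end alone, where neither was called. Without replicate 1 of both baits, Igkv4-50 was called among joints to the same kind of end (1.33, adjusted p = 0.00084, limma). Why these differ was not tested.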

How the results depend on the processing

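Of the main values of the comparisons, 166 alternative values kept their direction and side of the threshold, 9 reversed and 16 counts moved, and of the finer values 406 kept them, 25 reversed, 8 lost and 5 gained the threshold and 1 moved, and with 3 libraries of each bait no exact p could fall below 0.1. Values are JK1SE minus JK1CE, in percentage points unless stated. Counting each distinct junction once reversed V-J Eff (−0.0555), coding preys at INV sites (−0.813), the trimming of coding preys (2.48), translocations (−0.683, log2), direct joints and insertions of coding preys (−0.819 and 2.86), insertions of signal preys (3.26), sTAD4 (0.762) and, against WT, hybrid share (−4.11) and the trimming of coding preys (−14.2). Without replicate 1 of both baits, coding preys at INV sites (−2.73), hybrid share at DEL sites (2.66, and 1.31 against WT), sTAD4 (1.71) and Jκ2 to Jκ5 (0.450) reversed. Leaving out 1 library gave −1.27 to 2.96 for coding preys at INV sites, −4.25 to 1.69 for the trimming of coding preys, 1 to 7 sites called against WT, −5.99 to 0.395 for hybrid share at DEL sites and −1.09 to 0.202 for insertions of coding preys (both above 0 without JK1SE replicate 1), −2.26 to 0.773 for sTAD4 and −2.16 to 0.816 for sTAD3 (both above 0 without JK1CE replicate 1, and sTAD3 also, at 0.0390, without JK1SE replicate 3). Coding preys at DEL sites stayed between −54.0 and −47.6. Joints to the same kind of end alone reversed the share of DEL sites (4.72), sTAD1-2 (5.36), sTAD3 (3.42) and sTAD5 (−1.07), and hybrid joints alone sTAD4 (5.46). Pooling 1-bp with longer overlaps reversed longer overlaps (−7.19 for coding and −6.15 for signal preys). Against WT, trimming reversed with a limit of 5 bp for signal preys (−2.28), of 20 bp for coding preys (−6.18) and of 0 bp for the bait end with signal preys (−63.8), as did the Jκ region per 500000 read pairs (6509). Sites called against WT were 52 without replicate 1 of both baits, 13 with each distinct junction once and 5 in the smaller run, and, in settings added after seeing the data, 6 with a variance trend, 0 among joints to the same kind of end, 0 among hybrid joints and, without replicate 1, 31 and 1 among these and 27 with each distinct junction once. The number of sites called between baits was 0 under every setting fixed at the start and, in settings added after seeing the data, 9 among joints to the same kind of end and 3 among hybrid joints, both without replicate 1. The causes were not tested. No paired analysis was possible because the labels give no replicate number shared by libraries of the baits.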

Other observations

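The site without an annotated segment at 69233787, an INV site, gave mostly coding end joints from both baits, as Igkv4-70 did outside replicate 1 of the JK1SE bait: 75%, 93.3% and 91.1% from the JK1CE bait and 98.1%, 92.7% and 82.95% from the JK1SE bait. The site without an annotated segment at 70190420, also INV, stood with Igkv8-16 in giving mostly signal end joints: coding ends took 0%, 25.6% and 18.5% of its joints from the JK1CE bait and 33.3%, 15.9% and 19.1% from the JK1SE bait. All 4 sites have the full heptamer, and these sites were picked after their values were seen.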
